A study of Homo sapiens with 16 samples.

Results

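The 10 genes described here encode the subunits of the general transcription factor TFIIH. They are CCNH, CDK7 and MNAT1, whose products form the CDK-activating kinase (CAK), the helicase genes ERCC2 and ERCC3, and the core genes GTF2H1, GTF2H2, GTF2H3, GTF2H4 and GTF2H5. They were chosen by symbol, as the subunits of this complex, and all 10 were found among the 58676 gene identifiers of the count files. The libraries came from 2 established human lines, the lung cancer line A549, grown in RPMI, and the triple-negative breast cancer line SUM159, grown in DMEM/F12 with insulin and hydrocortisone. Cells were left untreated (UT) or received 2 µM palbociclib (PD), 3 µM indisulam (IN) or both (P+I) for 16 h, with 2 libraries per group and 16 in all. The study calls the duplicates technical, so p-values measure the spread between these libraries and not between independent cultures. Each line is a single culture model, and line and medium cannot be told apart.

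Cyclin H, CDK7 and MAT1, the product of MNAT1, form a kinase that phosphorylates the T-loop of the cell cycle kinases CDK1, CDK2, CDK4 and CDK6, a step these kinases need for full activity. The same trio docks on the TFIIH core and phosphorylates the tail of RNA polymerase II as transcription starts. The core opens DNA at promoters through the translocase XPB (ERCC3), and during nucleotide excision repair through XPB and the helicase XPD (ERCC2). Palbociclib inhibits CDK4 and CDK6. Indisulam makes the splicing factor RBM39 a substrate of a ubiquitin ligase, so that RBM39 protein is degraded. The study examined whether indisulam lowers cyclin H and thereby CDK2 activation.

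Among the 10 genes, CCNH and GTF2H1 stood apart, since their counts were more than 1.5-fold lower in every comparison of an indisulam-treated group with untreated cells. The bases just upstream of their transcription starts are therefore shown, together with those of GTF2H5, whose level was higher after the combination in both lines. The sequences are RefSeq's for GRCh38.p14, read in the direction of transcription and ending at the last base before the start, with motif matches in capitals. CCNH lies on the minus strand (chr5:87412931-87413080), GTF2H1 on the plus strand (chr11:18322417-18322566) and GTF2H5 on the plus strand (chr6:158168200-158168349).
CCNH: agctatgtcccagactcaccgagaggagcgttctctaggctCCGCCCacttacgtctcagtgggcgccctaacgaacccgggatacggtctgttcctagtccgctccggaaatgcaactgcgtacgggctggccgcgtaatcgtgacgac
GTF2H1: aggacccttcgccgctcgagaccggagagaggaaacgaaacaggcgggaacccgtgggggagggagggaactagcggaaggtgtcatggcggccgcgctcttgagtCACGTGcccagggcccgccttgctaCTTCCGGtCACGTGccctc
GTF2H5: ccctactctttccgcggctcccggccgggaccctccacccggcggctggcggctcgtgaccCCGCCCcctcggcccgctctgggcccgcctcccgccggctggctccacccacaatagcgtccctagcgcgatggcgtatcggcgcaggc
The capitals mark a GC box (GGGCGG on either strand) in CCNH and GTF2H5. In GTF2H1 they mark a pair of E-boxes (CACGTG) and an ETS motif (CCGGAAG on either strand), none of which overlap.

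RefSeq promoters of 300 bases were found for all 10 members. A GC box occurred in the promoters of 7 of the 10 members and in 44.9% of all 34943 promoters of that length. The E-box occurred in 2 members, GTF2H1 and CDK7, against 7.23% of all promoters, and the ETS motif in 4 members against 10.2%. A TATA box (TATAAA) was found in 0 of the 10, against 11.6% of all promoters. The E-box and the ETS motif were absent from the CCNH window. Both were present in that of GTF2H1, so the full motifs as searched were not shared by CCNH and GTF2H1. The CCNH window does hold CCGGAAA, which differs from the ETS motif in its last letter only. Of the other members called lower with indisulam, GTF2H3 (SUM159) had the ETS motif and no E-box. ERCC2 (A549) had neither. A match is a description of letters and not of a bound site.

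Library depth ran from 18306636 to 34075588 gene counts, and 3 counts, the smallest level taken as seen, equalled 0.0880 to 0.164 CPM without TMM scaling. All values of a member are CPM, a count relative to library size with edgeR's TMM scaling, unless another scale is named. RBM39 mRNA was higher in every indisulam-treated library, at 336 to 367 CPM in A549 against 146 to 178 CPM without indisulam. In SUM159 the ranges were 389 to 486 and 191 to 230 CPM. The proliferation marker MKI67 was at 73.1 to 124 CPM in the palbociclib-treated libraries of either line and at 459 to 654 CPM in the others. A549 expressed all 5 epithelial markers examined (KRT8, KRT18, KRT19, EPCAM and CDH1) and also the mesenchymal markers VIM (699 to 930 CPM), FN1 (277 to 385), CDH2 and ZEB1, whereas of 4 lung genes NKX2-1, SFTPB and SFTPC did not exceed 0.428 CPM and NAPSA did not exceed 1.13 CPM. SUM159 expressed the same 4 mesenchymal markers, with VIM at 2755 to 4144 CPM, and also the keratins KRT8 (533 to 792 CPM) and KRT18 (326 to 450), while EPCAM, CDH1 and KRT19 did not exceed 0.682 CPM. The hormone receptor genes ESR1 and PGR did not exceed 0.796 CPM there, while ERBB2 was at 98.4 to 145 CPM. CDKN2A, the gene of p16, was at 1.35 to 2.48 CPM in A549, which the study describes as lacking p16. In SUM159 CDKN2A did not exceed 0.0482 CPM. The study saw p16 protein increase in that line on Western blots, after a longer treatment at other doses than in these 16 h libraries. Of markers of other cell types, COL1A1 was at 627 to 810, PECAM1 at 17.4 to 38.9 and PTPRC at 3.05 to 4.54 CPM in SUM159, and at no more than 4.26 CPM in A549. The share of reads in no annotated feature was 4.02 to 4.71% in A549 libraries without indisulam and 4.83 to 5.97% in those with it, and 3.89 to 5.45% and 5.70 to 6.78% in SUM159. The part of this difference in the results below was not tested.

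CCNH encodes cyclin H, the regulatory subunit of CAK, and spans chr5:87318416-87412930 on the minus strand (GRCh38, GENCODE 44), with 9 exons in its canonical transcript. Its A549 libraries held 27.0 and 23.7 CPM (UT), 25.1 and 24.3 (PD), 9.12 and 8.30 (IN), and 10.1 and 10.8 (P+I). In SUM159 the values were 54.6 and 53.8 (UT), 50.0 and 49.3 (PD), 19.8 and 21.1 (IN), and 23.5 and 21.0 (P+I). No library with indisulam reached the level of any library without it in the same line. After indisulam alone CCNH fell to 34.4% of the untreated level in A549 and to 37.8% in SUM159. Of all genes tested, 1.90% in A549 and 0.815% in SUM159 had a more negative change with indisulam. Against palbociclib alone the combination was lower by -1.24 ± 0.09 (log2 change ± SE) in A549 and by -1.15 ± 0.06 in SUM159, with adjusted p-values of 5.1e-08 and 1.8e-10. The fall held in every alternative tested in both lines. Because RNA was taken from whole cultures, a lower level in each cell and a larger share of cells with a low level cannot be told apart.

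**Figure D1:**
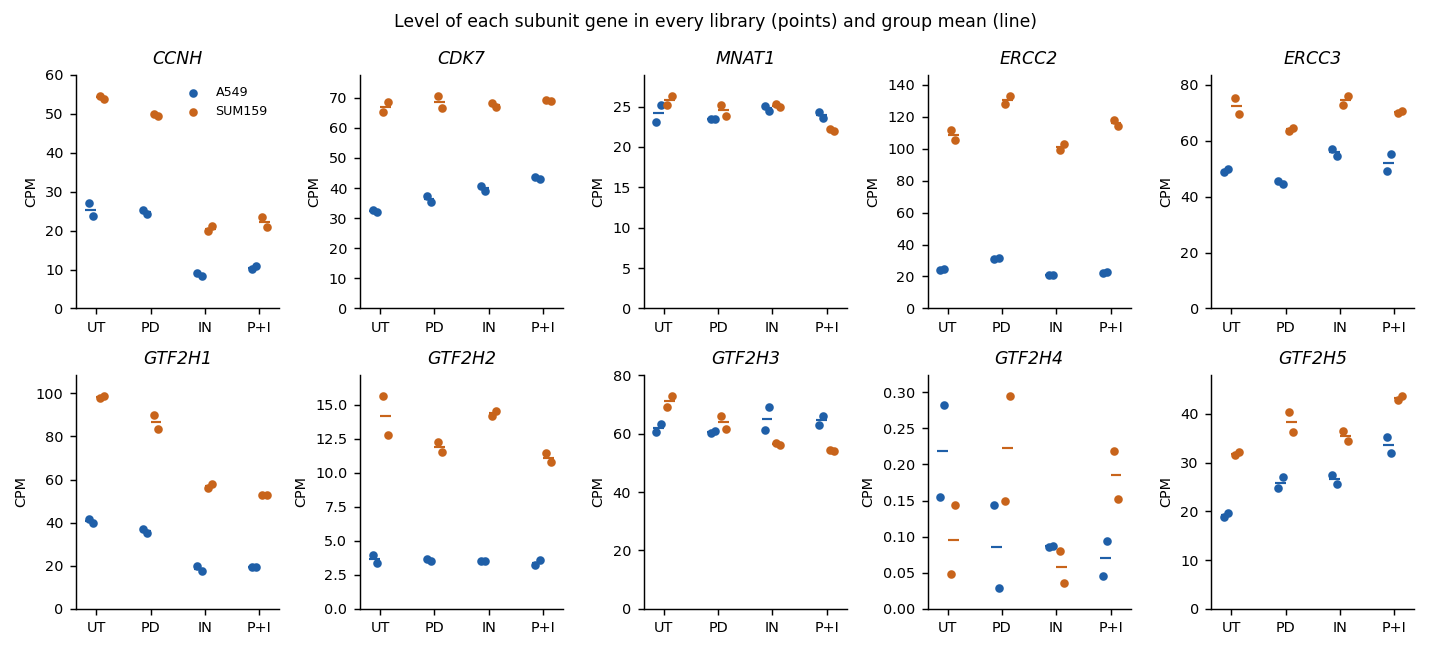
CPM (vertical axis, from 0, a different scale in each panel) of the 10 subunit genes in untreated (UT), palbociclib (PD), indisulam (IN) and combination (P+I) libraries of A549 and SUM159. Each point is 1 library and each line the mean of 2. CCNH and GTF2H1 are low with IN and P+I in both lines, MNAT1 stays between 22.0 and 26.3 CPM, and GTF2H4 reaches at most 0.295 CPM.

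Palbociclib alone did not give a called change of CCNH in either line. The log2 difference was -0.04 in A549 (95% interval -0.21 to 0.13) and -0.13 in SUM159 (-0.24 to -0.01, adjusted p = 0.0623). With total-count scaling the A549 value changed sign to 0.0211, and without the first untreated library it was 0.0551. The combination and indisulam alone differed by 0.26 in A549 (0.04 to 0.49, adjusted p = 0.0645) and by 0.12 in SUM159 (-0.02 to 0.27, adjusted p = 0.139). Those differences passed the threshold under total-count scaling, at 0.32 and 0.22, and in the fit of all 16 libraries, at 0.27 and 0.19. In SUM159 the difference also passed with at least 10 counts in every library, at 0.18, and without the second combination library, at 0.20.

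The annotation around CCNH holds other genes. Of its merged exon bases 21.2% overlap genes on the other strand, of which RASA1 takes 12.9% and the lncRNA ENSG00000285190 8.29%. The canonical CCNH transcript has no exon base in common with RASA1, and 19.8% of its bases are shared with the lncRNA. That lncRNA was at 0 counts in all 8 A549 libraries and at no more than 6 in SUM159. RASA1 encodes a Ras GTPase-activating protein. Its log2 difference after indisulam was 0.11 in A549, which did not pass, and -0.17 in SUM159, which did. The processed pseudogene CCNHP1 was listed at 0 in every library.

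CDK7, the catalytic subunit of CAK (chr5:69234795-69277430, plus strand, 12 exons), was higher in treated A549 cells. Its A549 libraries held 32.7 and 32.0 CPM (UT), 37.3 and 35.5 (PD), 40.8 and 38.9 (IN), and 43.5 and 43.1 (P+I). Every treated A549 library lay above both untreated ones. CDK7 rose by 0.30 ± 0.06 with indisulam (log2, adjusted p = 8.1e-04) and by 0.42 ± 0.06 when both drugs were given (adjusted p = 3.0e-05). It was also higher in the combination than with palbociclib alone, by 0.25 ± 0.06, and these 3 calls held in every alternative. The rise with palbociclib, 0.17 ± 0.06 (adjusted p = 0.035), was lost with DESeq2, in the fit of all 16 libraries (0.15), without the filter on low counts (0.16) and when any single A549 library was left out (0.13 to 0.21).

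In SUM159 the CDK7 libraries held 65.3 and 68.5 CPM (UT), 70.6 and 66.7 (PD), 68.3 and 66.8 (IN), and 69.3 and 68.8 (P+I). None of the 3 treatments gave a called change. The log2 difference was 0.01 with indisulam (95% interval -0.09 to 0.11) and 0.05 with the combination (-0.05 to 0.15). Under total-count scaling, which moves the median of all genes in SUM159 from 0.01 to 0.16 for the combination, the CDK7 value was 0.19 and passed, and that with palbociclib was 0.14 and passed. In the fit of all 16 libraries the combination value was 0.12 and passed. The processed pseudogene CDK7P1, which shares 1.63% of the 75-base windows of the canonical CDK7 transcript, held at most 4 counts.

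MNAT1 encodes MAT1, the assembly factor that joins cyclin H and CDK7 and tethers them to XPD (chr14:60734742-60969965, plus strand, 8 exons). Its level spanned 23.1 to 25.2 CPM over the 8 A549 libraries and 22.0 to 26.3 CPM over the 8 SUM159 libraries. In A549 the log2 differences from untreated were -0.04 with palbociclib, 0.04 with indisulam and -0.01 with the combination, and their 95% intervals lay between -0.19 and 0.19. In SUM159 MNAT1 fell by 0.22 with the combination (SE 0.06, adjusted p = 0.00633), from 25.2 and 26.3 to 22.3 and 22.0 CPM. That call was lost under total-count scaling (-0.07), in the fit of all 16 libraries (-0.15) and without the second untreated library (-0.19). MNAT1 was also called lower in the combination than with indisulam alone, by -0.18 ± 0.06, a call lost under total-count scaling (-0.09), in the fit of all 16 libraries (-0.11), with at least 10 counts in every library (-0.13), with DESeq2 (-0.17) and when any single indisulam or combination library was left out (-0.20 to -0.17).

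Ratios of counts within a library do not depend on library scaling. In A549 there were 0.826 and 0.741 CCNH counts per CDK7 count (UT), 0.674 and 0.685 (PD), 0.223 and 0.213 (IN) and 0.233 and 0.250 (P+I). In SUM159 the ratio was 0.836 and 0.786 (UT), 0.708 and 0.740 (PD), 0.290 and 0.316 (IN), and 0.339 and 0.305 (P+I). The untreated ratio was thus close in the 2 lines, while the ratio after indisulam was lower in both A549 libraries than in both SUM159 libraries. CCNH to MNAT1 differed between the lines already in untreated cells, at 1.17 and 0.940 in A549 and 2.16 and 2.04 in SUM159. After indisulam it was 0.363 and 0.340 in A549 and 0.784 and 0.848 in SUM159. With 2 libraries a group these ratios are given without a test.

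**Figure D2:**
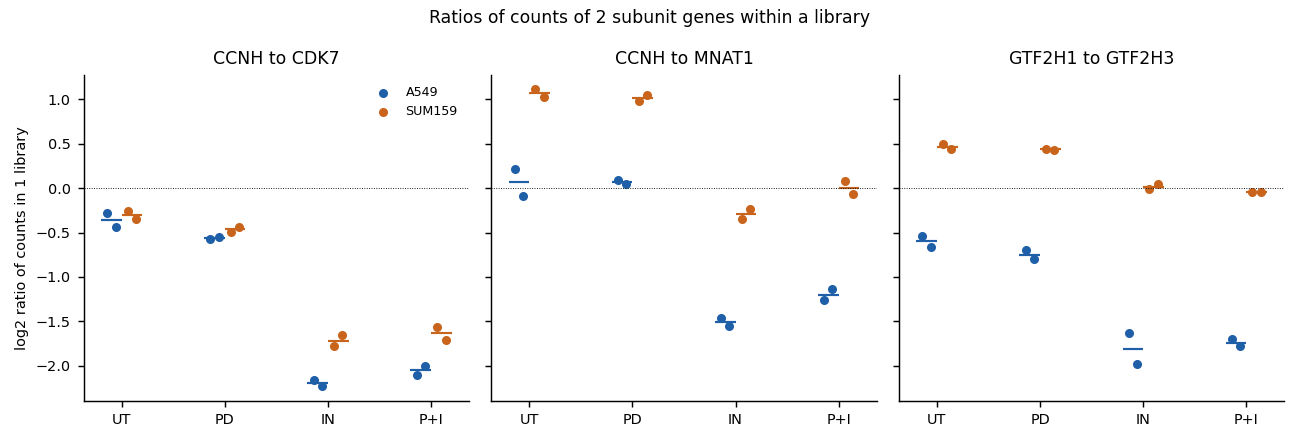
log2 ratio of the counts of 2 subunit genes in the same library (vertical axis), by treatment, for A549 and SUM159. Points are libraries, lines are means of 2, and the dotted line marks equal counts. All IN and P+I points lie under the UT and PD points of their line. In SUM159 GTF2H3 was itself called lower with IN and P+I.

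ERCC2 encodes XPD, the helicase that also anchors CAK (chr19:45349837-45370918, minus strand, 23 exons). In A549 it held 24.0 and 24.9 CPM (UT), 30.8 and 31.8 (PD), 20.8 and 21.0 (IN), and 22.5 and 23.0 (P+I). The palbociclib libraries were highest and the indisulam libraries lowest, without overlap between these 4 groups. ERCC2 rose by 0.36 ± 0.07 with palbociclib (adjusted p = 4.7e-04) and was lower in the combination than with palbociclib alone by -0.46 ± 0.06 (adjusted p = 3.2e-05). Both calls held in every alternative. Its fall by 0.22 with indisulam alone (SE 0.07, adjusted p = 0.0147) was lost with DESeq2, and without the second untreated library (-0.19) or either indisulam library (-0.21 and -0.22).

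In SUM159 ERCC2 held 112 and 106 CPM (UT), 128 and 133 (PD), 99.2 and 103 (IN), and 118 and 114 (P+I). Palbociclib raised it there too, by 0.26 ± 0.04 (adjusted p = 6.1e-05), and the combination was lower than palbociclib by -0.17 ± 0.04 and higher than indisulam by 0.20 ± 0.04. The differences with indisulam alone, -0.10 (95% interval -0.20 to -0.01), and with the combination, 0.10 (0.00 to 0.19), did not pass. Both passed with a minimum of 10 counts in every library, at -0.11 and 0.14. The first also passed with RLE scaling (-0.12) and without the second untreated (-0.15) or either palbociclib library (-0.10). The second also passed under total-count scaling (0.25), in the fit of all 16 libraries (0.17), and without the first untreated (0.13) or the second palbociclib library (0.09). Of the ERCC2 merged exon bases 7.71% overlap KLC3 on the other strand, which held 9 to 27 counts.

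ERCC3, which encodes the translocase XPB (chr2:127257290-127294166, minus strand, 15 exons), moved little. Its A549 libraries held 48.7 and 49.8 CPM (UT), 45.6 and 44.6 (PD), 57.1 and 54.7 (IN), and 49.1 and 55.1 (P+I). The rise with indisulam was 0.18 ± 0.06 (adjusted p = 0.023), and it was lost with DESeq2 and without the first untreated (0.17), the second untreated (0.20) or the first indisulam library (0.16). In SUM159 the values were 75.3 and 69.4 (UT), 63.5 and 64.7 (PD), 72.7 and 76.1 (IN), and 69.8 and 70.5 (P+I). There ERCC3 fell by 0.17 with palbociclib (SE 0.05, adjusted p = 0.00611), a call lost under total-count scaling (-0.07), in the fit of all 16 libraries (-0.10) and without the first untreated library (-0.11). The combination was called higher than palbociclib by 0.21 in A549 and 0.13 in SUM159. The A549 call was lost without the second palbociclib (0.20) or the second combination library (0.13), and the SUM159 call with DESeq2 (0.12), in the fit of all 16 libraries (0.13), without the filter (0.10) and when any single palbociclib, indisulam or combination library was left out (0.11 to 0.14). In A549 the palbociclib difference, -0.13 (95% interval -0.26 to 0.00), passed in the fit of all 16 libraries and without either combination library (-0.15 each).

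GTF2H1 encodes the core subunit that contacts TFIIE and the repair factor XPC (chr11:18322295-18367045, plus strand, 15 exons). Its A549 libraries held 41.8 and 40.0 CPM (UT), 37.2 and 35.1 (PD), 19.8 and 17.4 (IN), and 19.4 and 19.2 (P+I). In SUM159 they held 97.8 and 98.8 (UT), 90.1 and 83.3 (PD), 56.3 and 58.0 (IN), and 53.0 and 52.8 (P+I). All indisulam-treated libraries lay under all others of their line. With indisulam GTF2H1 fell by 1.14 in A549 (SE 0.07, adjusted p = 1.9e-08) and by 0.78 in SUM159 (SE 0.05, adjusted p = 1.6e-09). With the combination it fell by 1.08 and by 0.89, to 47.2% and 53.8% of the untreated level. These 4 calls held in every alternative. A more negative change with indisulam was found for 4.21% of genes in A549 and 4.11% in SUM159.

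No exon base of GTF2H1 overlaps another annotated gene. Of the 75-base windows of its canonical transcript 0.511% occur in another gene. With palbociclib GTF2H1 was lower by -0.18 in both lines (adjusted p = 0.0388 and 0.00257). Under total-count scaling these values were -0.12 and -0.08 and did not pass. The SUM159 call was also lost in the fit of all 16 libraries (-0.11). The A549 call was also lost with DESeq2 and without the first untreated (-0.16), the second untreated (-0.22) or the second palbociclib library (-0.14). The combination and indisulam alone did not differ beyond the threshold, with differences of 0.05 in A549 (95% interval -0.12 to 0.22) and -0.11 in SUM159 (-0.22 to -0.01, adjusted p = 0.065). The SUM159 difference passed without either palbociclib library, at -0.12.

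The count ratio of GTF2H1 to GTF2H3, a core gene that did not give a called change in A549, was chosen for display after its values were seen. It was 0.690 and 0.632 in untreated A549 libraries, and 0.323 and 0.252 with indisulam. In SUM159 it went from 1.41 and 1.35 to 0.990 and 1.03. There GTF2H3 itself was called lower with indisulam (log2 change -0.33), so this ratio understates the change of GTF2H1 in that line. Relative to GTF2H1, CCNH was lower in both indisulam libraries of each line. The ratio of CCNH to GTF2H1 was 0.645 and 0.592 in untreated A549 and 0.461 and 0.476 with indisulam, and 0.558 and 0.545 against 0.352 and 0.365 in SUM159.

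GTF2H5 encodes the smallest core subunit, which stabilises TFIIH and is mutated in a form of trichothiodystrophy (chr6:158168350-158199344, plus strand, 3 exons). Its A549 libraries held 18.9 and 19.7 CPM (UT), 24.8 and 26.9 (PD), 27.5 and 25.7 (IN), and 35.2 and 32.0 (P+I). All treated libraries lay above the untreated pair, and the combination libraries above all others. GTF2H5 rose by 0.43 ± 0.08 with palbociclib, 0.46 ± 0.08 with indisulam and 0.80 ± 0.08 with the combination (adjusted p = 5.4e-04, 2.7e-04 and 7.1e-07). It was the sole member called different between the combination and indisulam alone in A549, at 0.34 ± 0.07. These calls held in every alternative.

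In SUM159 GTF2H5 held 31.4 and 32.2 CPM (UT), 40.5 and 36.3 (PD), 36.5 and 34.5 (IN), and 42.8 and 43.6 (P+I). It rose by 0.27 ± 0.06 with palbociclib and by 0.44 ± 0.06 with the combination (adjusted p = 0.00173 and 8.6e-06). The difference with indisulam alone was 0.16 (95% interval 0.02 to 0.29, adjusted p = 0.0555). It was called without either palbociclib library, at 0.16, and under total-count scaling, at 0.21. The combination exceeded palbociclib by 0.17 ± 0.06, a call lost with DESeq2 (0.16), without the filter (0.15) and without the second palbociclib (0.09) or either combination library (0.19 and 0.16). It also exceeded indisulam alone, by 0.28, and that call held in every alternative. No 75-base window of the canonical GTF2H5 transcript occurs in another gene.

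GTF2H3 encodes a core partner of the GTF2H2 product (chr12:123633739-123662604, plus strand, 13 exons). In SUM159 it held 69.2 and 72.9 CPM (UT), 66.1 and 61.7 (PD), 56.9 and 56.1 (IN), and 54.5 and 54.2 (P+I). The SUM159 libraries with indisulam lay under all libraries without it. GTF2H3 fell by 0.33 with indisulam (SE 0.05, adjusted p = 4.0e-05) and by 0.39 with the combination (SE 0.05, adjusted p = 2.9e-06), and both calls held in every alternative, although the second value was -0.24 under total-count scaling. Its fall by 0.16 with palbociclib (adjusted p = 0.0123) was lost with DESeq2 (-0.15), under total-count scaling (-0.05), in the fit of all 16 libraries (-0.08), without the filter (-0.13) and without the second untreated (-0.12) or the second palbociclib library (-0.10). In A549 GTF2H3 ranged from 60.3 to 69.1 CPM with no called change. The log2 difference with indisulam there was 0.07 (95% interval -0.06 to 0.20). Of its exon bases 0.701% overlap EIF2B1 on the other strand, which was called higher with indisulam in both lines.

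**Figure D3:**
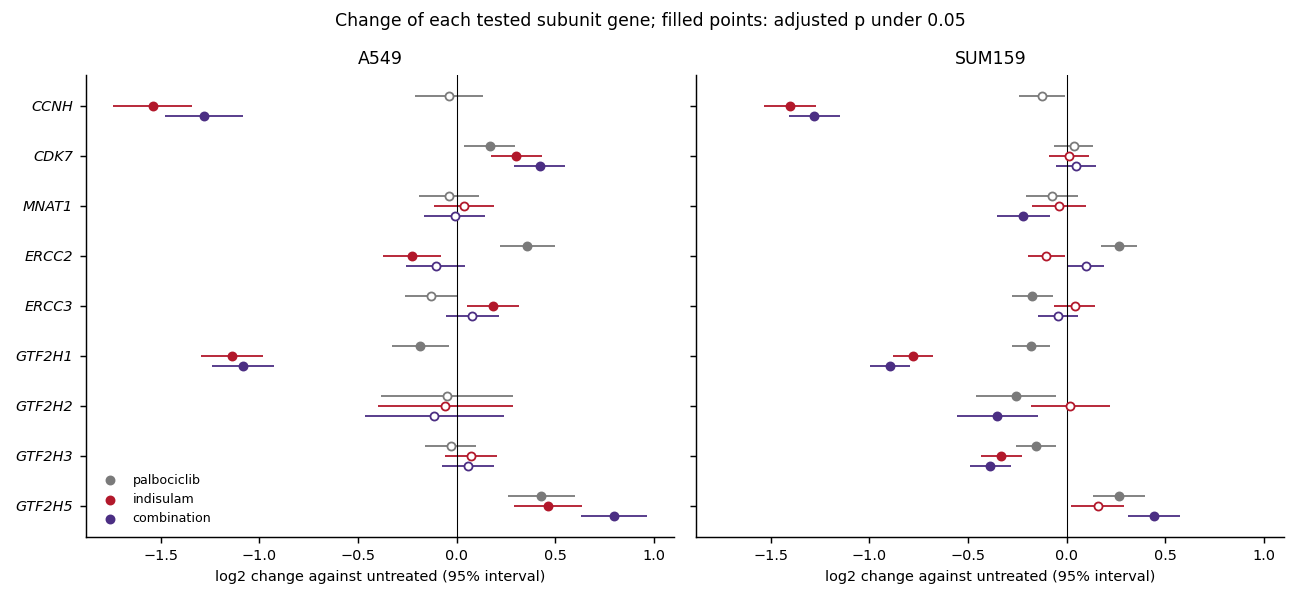
log2 change against untreated cells (horizontal axis) with its 95% interval for the 9 tested subunit genes in A549 (left) and SUM159 (right), after palbociclib, indisulam or the combination. Filled points have an adjusted p-value under 0.05 in edgeR. CCNH and GTF2H1 lie far left of 0 with indisulam and the combination, and GTF2H5 lies to the right in both lines.

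GTF2H2 encodes the core subunit that stimulates XPD (chr5:71035016-71067689, minus strand, 16 exons). Its counts cannot be assigned with confidence, since near-identical copies lie on the same chromosome. The coding sequences of GTF2H2 and the protein-coding copy GTF2H2C, 1185 bases each, differ at 4 positions and are 99.7% identical. Of the 75-base windows of the canonical GTF2H2 transcript, which is the read length of the study, 89.3% occur unchanged in another annotated gene. For GTF2H2C the share was 78.6%, and for ENSG00000291220, which the count files do not list, 80.4%. The reads were paired, and matches of whole pairs were not examined. A stretch of coding bases 367 to 426, counted from the start codon, shows 1 of the 4 differences, A397G (GTF2H2 base first), in capitals. It lies at chr5:71055396-71055455 in GTF2H2 and chr5:69572447-69572506 in GTF2H2C, each printed in the direction of transcription (GRCh38).
GTF2H2: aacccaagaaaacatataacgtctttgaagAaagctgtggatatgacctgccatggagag
GTF2H2C: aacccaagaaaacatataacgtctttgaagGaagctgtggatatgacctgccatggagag
All other bases of the stretch are the same in both genes.

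GTF2H2 held 3.22 to 3.93 CPM in A549, or 60 to 120 counts, and 10.8 to 15.6 CPM in SUM159. In A549 no change was called, and at these counts the 95% intervals were wide, from -0.40 to 0.29 with indisulam and from -0.46 to 0.24 with the combination. In SUM159 its libraries held 15.6 and 12.7 CPM (UT), 12.3 and 11.6 (PD), 14.2 and 14.5 (IN), and 11.4 and 10.8 (P+I). It was called lower with palbociclib, by -0.26 ± 0.10 (adjusted p = 0.0323). For the combination the change was -0.35 ± 0.10 (adjusted p = 0.00449). Without the first untreated library these values were -0.10 and -0.20, under total-count scaling they were -0.15 and -0.20, and neither passed. The palbociclib call was also lost with DESeq2 (-0.25), in the fit of all 16 libraries (-0.18), with at least 10 counts (-0.22), without the filter (-0.23) and without the second palbociclib library (-0.21), and the value was -0.40 without the second untreated library. The pseudogene copy GTF2H2B was lower beside them, by -0.45 and -0.73, while GTF2H2C gave -0.49 (called) and -0.38 (not called). In SUM159 GTF2H2 was also lower in the combination than with indisulam alone, by -0.37, and this call held in every alternative. In that comparison GTF2H2B gave -0.31 and GTF2H2C -0.46, both called. How reads were divided between the 3 genes was not tested.

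GTF2H4, which encodes the subunit that anchors XPB (chr6:30908207-30914106, plus strand, 14 exons), held 1 to 10 counts in every library and did not pass the filter on low counts. In the annotation used here 79.7% of its merged exon bases and 93.4% of its 75-base windows are shared with the lncRNA ENSG00000288473 on the same strand, an identifier that the count files do not list. The level of GTF2H4 could not be read from these counts, and no comparison was made.

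Per length, the members differed widely in untreated cells. The values of GTF2H2 and GTF2H4 are listed for completeness and are not read as levels, for the reasons given above. On merged exon length the order in A549 was GTF2H3 (15.5 ± 0.48 CPM per kb, SD, n = 2), CDK7 (13.4), MNAT1 (6.23), GTF2H1 (5.89), ERCC3 (5.85), CCNH (4.23), ERCC2 (3.53), GTF2H5 (2.2), GTF2H2 (0.577) and GTF2H4 (0.0937). The neighbours MNAT1 and GTF2H1, and GTF2H1 and ERCC3, overlapped between duplicates. In SUM159 the order began with CDK7 (27.7 ± 0.93 CPM per kb) and GTF2H3 (17.8 ± 0.65), and CCNH was the fifth at 9.06 ± 0.09. The order depended on the length used. On the canonical transcript CDK7 came first, at 22.7 ± 0.35 CPM per kb in A549 and 46.9 ± 1.6 in SUM159. CCNH followed at 42.4 ± 0.42 in SUM159, above all libraries of the next gene. In A549 CCNH was at 19.8 ± 1.8 and overlapped GTF2H3 (18.6 ± 0.58) between duplicates, and GTF2H3 overlapped ERCC3 (18.1 ± 0.27), so their order was not resolved. On the longest transcript CCNH was at 10.6 CPM per kb in A549.

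**Figure D4:**
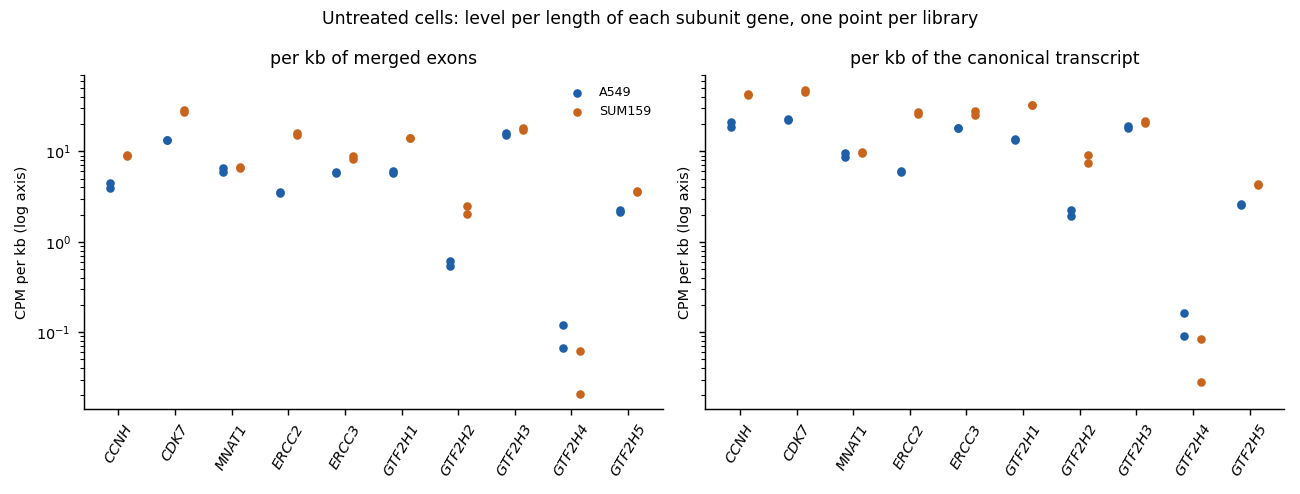
CPM per kb in untreated cells (vertical axis, log scale), per library, for the 10 subunit genes of A549 and SUM159, on merged exon length (left) and on canonical transcript length (right). In A549 CCNH stands sixth of 10 on the left, and on the right it lies under CDK7 and overlaps GTF2H3. The points of GTF2H2 and GTF2H4 cannot be read as levels.

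Counted over the 9 members that could be tested, 4 were called with palbociclib in A549, where 43.2% of all genes were called, and 6 in SUM159, where 54.5% were. With indisulam 6 were called in A549 (49.2% of all genes) and 3 in SUM159 (46.9%). With the combination 4 were called in A549 (57.8%) and 6 in SUM159 (65.3%). Against palbociclib alone the combination gave 6 called members in A549 (51.5%) and 6 in SUM159 (48.3%). Against indisulam alone it gave 1 in A549 (38.8%) and 4 in SUM159 (52.9%). These shares lay on either side of those over all genes. The median log2 change of the members with indisulam was 0.04 in A549 and -0.04 in SUM159, beside 0.01 over all genes in each. Calls that also reached a log2 change of 1 were CCNH and GTF2H1 in A549 with indisulam, where 8.19% of genes did so, and CCNH in SUM159, where 5.6% did.

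The combination was compared with what adding the log2 changes of each drug alone would give. edgeR called 0 of 9 members in A549, where 3.53% of all genes were called, and 0 of 9 in SUM159 (4.38%), and DESeq2 called 0 in both. At an unadjusted p under 0.05 there were 3 in A549 (CCNH, GTF2H1 and ERCC2) and 1 in SUM159 (CCNH). The share of all genes at that unadjusted threshold is not given here, so these counts cannot be set against the shares above. For CCNH the combination lay above the sum by 0.30 in A549 (95% interval 0.02 to 0.59, adjusted p = 0.24) and by 0.25 in SUM159 (0.06 to 0.43, adjusted p = 0.121). For GTF2H1 in A549 it lay above by 0.24 (0.01 to 0.46), and for ERCC2 in A549 below, at -0.24 (-0.44 to -0.04).

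Counts of 7 of the 9 tested members were called higher in untreated SUM159 than in untreated A549 cells. Of all genes, 38.3% were called higher and 76.3% were called in either direction. ERCC2 was 4.06-fold higher (log2 2.02 ± 0.06), GTF2H2 3.53-fold (1.82 ± 0.13), GTF2H1 2.19-fold, CCNH 1.95-fold, CDK7 1.89-fold, GTF2H5 1.51-fold and ERCC3 1.34-fold. The GTF2H2 value is not read as a difference in level, since its counts cannot be assigned with confidence. Its copy GTF2H2B was 9.05-fold higher in SUM159. MNAT1 differed by -0.04 (95% interval -0.18 to 0.11) and GTF2H3 by 0.07 (-0.05 to 0.19), and neither was called. The GTF2H3 difference passed under total-count scaling (0.17) and when any 1 of 5 A549 libraries was left out, namely the second untreated (0.17), the second indisulam, the first palbociclib or either combination library (0.15 each).

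Responses to the drugs were compared between the lines in a fit of all 16 libraries, as SUM159 change minus A549 change. For palbociclib edgeR and DESeq2 called 0 of 9 members, where edgeR called 12.8% of all genes. At an unadjusted p under 0.05 there were 0 members, and the share of all genes under that rule is not given here. For indisulam 3 were called (15% of all genes). GTF2H1 fell less in SUM159, by 0.36 ± 0.09 (adjusted p = 0.0068), while CDK7 (-0.29 ± 0.08, adjusted p = 0.0128) and GTF2H3 (-0.40 ± 0.08, adjusted p = 0.00139) had lower changes in SUM159. The CCNH responses differed by 0.14 (95% interval -0.10 to 0.38), which did not pass. For the combination 5 were called (30.9% of all genes), of which ERCC2 and GTF2H1 were higher in SUM159 and CDK7, GTF2H3 and GTF2H5 lower. In that fit the median of all genes was itself 0.10 for the combination and 0.08 for palbociclib, beside 0.02 for indisulam. With RLE scaling the combination median was 0.01, and ERCC2 (0.18) and GTF2H1 (0.17) were no longer called, while CDK7, GTF2H3 and GTF2H5 were.

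In a fixed list of 8 genes of CDK T-loop phosphorylation, 1 rose and 4 fell with indisulam in each line. That is 62.5% of the list, beside 49.2% of all genes called in A549 and 46.9% in SUM159. The gene that rose was CDK20, also described as a CDK-activating kinase. It went from 3.77 and 3.44 CPM to 7.66 and 8.08 in A549, and from 4.68 and 4.45 to 7.38 and 7.80 in SUM159, by 1.12 ± 0.14 and 0.73 ± 0.14 on the log2 scale. CDK4 fell by 0.37 and 0.57 and CDKN3, a phosphatase that removes the T-loop phosphate, by 0.40 and 0.30. With the combination CDK1 fell by 2.89 in A549 and 2.26 in SUM159, CDKN3 by 1.79 and 1.60, and CDK2 by 1.55 and 1.35. These genes were already low with palbociclib alone. In A549 their mean levels were then 45.1, 19.7 and 40.0 CPM, against 174, 75.1 and 93.0 in untreated cells. In SUM159 they were 56.7, 20.3 and 49.2 CPM, against 152, 51.6 and 98.9. The median log2 change of the list with indisulam was -0.12 in A549 and -0.15 in SUM159, beside 0.01 over all genes.

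**Figure D5:**
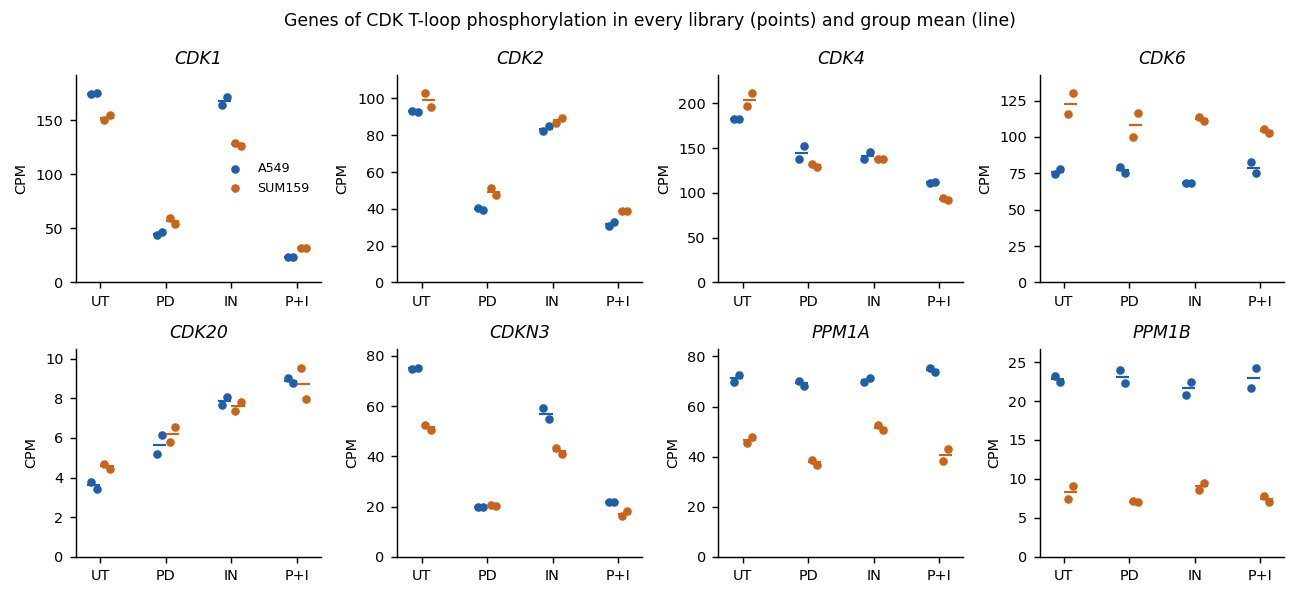
CPM (vertical axis, from 0) of the 8 listed genes of CDK T-loop phosphorylation in every library, by treatment, in A549 and SUM159. CDK1, CDK2 and CDKN3 are low in the PD and P+I libraries, and CDK20 is lowest in the UT libraries.

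Other lists gave the surroundings of CAK and TFIIH. Genes are named only where they were among the largest called changes of their list in both lines, so the names do not show where the lines differed. Of 15 further CDKs and cyclins of transcription, 14 could be tested in A549 and 15 in SUM159. With indisulam 1 rose and 2 fell in A549, and 3 rose and 2 fell in SUM159. CDK9, the kinase of the elongation factor P-TEFb, fell by 0.56 and 0.61. Of 21 other general transcription factor genes 7 rose and 4 fell in A549, and 5 rose and 3 fell in SUM159. TAF12 fell by 0.99 and 0.61 and TAF6 by 0.55 and 0.49, whereas TAF7 rose by 0.55 and 0.51. Of 12 RNA polymerase II subunit genes 2 rose and 1 fell in A549, and 2 rose and 2 fell in SUM159, with POLR2K higher by 0.28 and 0.29. Of 22 excision repair genes outside TFIIH 3 rose and 7 fell in A549, and 3 rose and 10 fell in SUM159, with LIG3, a DNA ligase, lower by 0.66 and 0.62. The shares called in these 4 lists, in the order given, were 21.4, 52.4, 25.0 and 45.5% in A549, beside 49.2% of all genes, and 33.3, 38.1, 33.3 and 59.1% in SUM159, beside 46.9%. No called member of these 4 lists reached a 2-fold change with indisulam, beside 8.19% of all genes in A549 and 5.6% in SUM159. TAF12 in A549 lay just under that size.

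Genes with the pattern most like that of CCNH were ranked by Pearson's r of log2(CPM + 0.5), centred within each line, over the 16 libraries and 9658 genes. The nearest were BLTP2 (0.992), NEK1 (0.991), ILK (0.990), SURF4 (0.990) and ENSG00000273760 (0.989). GTF2H1 ranked 29th, with r = 0.977, ERCC2 ranked 1792nd (0.663), and the other members compared came later. The libraries share controls and treatments, and r here mostly follows whether indisulam was given, so it is a description without a test. Between indisulam and untreated libraries NEK1 differed by -1.52 in A549 and -1.22 in SUM159 on that scale.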

How the data were processed

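The authors sequenced poly(A) RNA on a NextSeq 550, trimmed the reads with SeqPurge, aligned them to GRCh38 with HISAT2 2.2.1 and counted them per Ensembl gene with HTSeq. The deposited values are raw counts, 1 column per library. The study describes its RNA libraries as strand-specific. The strand setting and annotation release of the counting are not given in the sources used here.

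From these counts, edgeR 4.0.16 (R 4.3.3) was run with TMM scaling, its default filter on low counts and a quasi-likelihood test, with 1 coefficient per group and 8 libraries per line (15744 genes in A549, 16080 in SUM159). Lines were compared in a fit of all 16 libraries (17764 genes). Adjusted p is Benjamini-Hochberg over all genes tested, with a threshold of 0.05, and errors are SE with 95% intervals. A fold change is called only by this rule. Comparisons with untreated cells share the untreated libraries. Gene positions were taken from GENCODE 44, which held 58207 of the 58676 identifiers, and promoters from RefSeq. Counts of 3 set the floor, which covers counting error only.

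The members and the lists were chosen with earlier results of these data known. Named list genes were among the largest called changes of their list, at 5 CPM or more, in both lines. Genes with such a change in only A549 or only SUM159 were left unnamed. Duplicates differed by more than sampling noise. Correlations of same-numbered libraries ran from -0.114 to 0.114, so the numbers do not pair them. Alternatives were other scalings (RLE, total count), filters (none, 10 counts), DESeq2 1.42.0, a replicate block, a 16-library fit and leaving out each library. Canonical transcript length and a crossed block were chosen after seeing the data.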

Additional observations from a re-analysis of the deposited data

Results flagged for a closer look

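Responses of 8 member and drug pairs differed between the lines by the interaction test of edgeR (SUM159 change minus A549 change, log2). For indisulam the differences were -0.29 for CDK7, 0.36 for GTF2H1 and -0.40 for GTF2H3. For the combination they were -0.31 for CDK7, 0.27 for ERCC2, 0.26 for GTF2H1, -0.38 for GTF2H3 and -0.29 for GTF2H5. The median over all genes in these comparisons was 0.02 and 0.10, so the differences of ERCC2 and GTF2H1 for the combination are smaller against that median. When any single A549 library was left out, the median for the combination was -0.06 to -0.02, also for libraries that are not in the comparison. The cause was not tested. It was 0.01 with RLE scaling and -0.01 with DESeq2.

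The GTF2H3 differences and that of CDK7 for the combination held in every alternative. The CDK7 difference for indisulam was lost without the filter on low counts (-0.26), without the first A549 indisulam library (-0.25), the second SUM159 indisulam library (-0.27) or the second SUM159 untreated library (-0.25). The GTF2H1 difference for indisulam was lost without the second A549 indisulam library (0.25) or the first A549 untreated library (0.30). For the combination, ERCC2 was lost with RLE scaling and DESeq2 (0.18 each), with at least 10 counts in every library (0.16), and when any single A549 library was left out (0.10 to 0.14). It was also lost without the first SUM159 combination library (0.23) or the second SUM159 untreated library (0.23). GTF2H1 was lost with RLE scaling and DESeq2 (0.17 each), with at least 10 counts (0.15), without filter (0.24), when any single A549 library was left out (0.07 to 0.15) and when any single SUM159 untreated or combination library was left out (0.24 to 0.26). GTF2H5 was lost without the second SUM159 untreated (-0.27) or the first SUM159 combination library (-0.29), but was -0.44 without the first A549 palbociclib or the second A549 indisulam library, -0.46 without the second A549 untreated and -0.51 without the second A549 combination library. CDK7 for the combination was -0.48 without the first A549 untreated and -0.47 without the second A549 combination library.

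Other differences did not pass but did so under some alternatives. That of GTF2H5 for indisulam (-0.30) passed at -0.38 to -0.30, and that of MNAT1 for the combination (-0.14) at -0.34 to -0.25. That of ERCC3 for the combination (-0.06) passed without the first A549 combination library, at -0.28.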

How the results depend on the processing

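Of 46 called values of members in the 10 drug comparisons, 32 kept their call in every alternative, 14 lost it at least once and 0 changed sign, while 14 of 44 uncalled values were called at least once. With DESeq2 the members called fell from 4 to 2 for palbociclib in A549 and from 5 to 3 for the combination response between lines, which was also 3 with RLE scaling. Total-count scaling gave 3 in place of 1 for combination against indisulam in A549 and 3 in place of 6 for palbociclib in SUM159, and the 16-library fit gave 2 in each. Leaving out 1 library gave 2 to 4 members for palbociclib in A549, 1 to 2 for combination against indisulam in A549, 3 to 5 for indisulam in SUM159 (5 without either palbociclib library) and 2 to 5 for the combination response. The share of all genes called under each of these settings is not given here. These shifts can therefore not be read as particular to the members.

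The CCNH difference with palbociclib in A549 was 0.0211 under total-count scaling and -0.132 to 0.0551 with 1 library left out. For CCNH the palbociclib response between lines (0.0105) was -0.0409 under total-count scaling, -0.0887 with RLE, -0.0226 without filter, -0.094 at 10 counts, -0.0903 with DESeq2 and -0.2665 to 0.0181 with 1 library left out. The CCNH combination response (0.0661) was -0.0203 with RLE, -0.0386 at 10 counts, -0.0223 with DESeq2 and -0.1894 to 0.1394 with 1 library left out. CCNH in untreated A549 was 4.23 CPM per kb on merged exons, 10.591 on the longest and 19.783 on the canonical transcript, since these lengths differ. The cause of the other changes was not tested.

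The replicate numbers do not pair the libraries, and the replicate block changed no call of CCNH (-1.54 with indisulam in A549 under the block). The crossed pairing moved no count of called members by more than 1.5 times. Total-count scaling raised the share of higher genes among all calls from 51.1 to 62.4% for palbociclib in A549, 46.8 to 62.5% in SUM159, and 49.3 to 64.3% for the combination in SUM159. At 60 to 120 counts, GTF2H2 in A549 had intervals too wide to show small changes, and GTF2H4 did not pass the count filter.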
